A study of Homo sapiens with 9 samples.

Results

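RNA levels of 53 receptor tyrosine kinase genes were followed in 9 RNA-seq libraries of LNCaP and PC3 cells. The 53 genes were the rows of the count table that carried the listed receptor tyrosine kinase symbols, and all of them were found among the 28216 genes of the table. Both cell lines are established lines that were grown from prostate cancer metastases. LNCaP cells (clone FCG) respond to androgen, and PC3 cells grow without it. PC3 cells, without treatment, were grown in F12K medium with 10% FBS and gave 3 libraries. LNCaP cells first spent 24 h in RPMI medium without phenol red and with 10% charcoal-stripped FBS, from which steroids are removed. They were then treated for 48 h with 10 nM dihydrotestosterone (DHT, 3 libraries) or with 0.01% ethanol as vehicle (3 libraries). The labels name the androgen as DHT, whereas the main text of the study names R1881. PC3 and LNCaP cells differed in medium, serum and treatment as well as in line, so these differences cannot be told apart in any comparison of the lines. The labels do not say that replicates came from separate cultures, and p-values therefore measure the spread between these libraries only.

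Receptor tyrosine kinases are membrane proteins that bind a growth factor or a ligand on a neighbouring cell. Binding brings receptors together, and they phosphorylate tyrosines on each other, to which adaptors of the RAS-MAPK and PI3K-AKT pathways bind. Families differ in their ligands, such as EGF and neuregulins for the ERBB receptors, insulin-like growth factors for IGF1R, HGF for MET, GAS6 for the TAM receptors and ephrins for the EPH receptors. Some members, among them ERBB3, EPHA10, EPHB6, PTK7 and RYK, have kinase domains with little or no activity. In prostate cancer cells these receptors are studied as growth and survival signals that act beside androgen.

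The libraries held 17397706 to 25640325 counts on genes. Levels are given as CPM (counts scaled to the library's total) after TMM scaling over the 9 libraries, and levels of different genes were compared only per kilobase of transcript. The lines matched their labels by most of their markers. KLK3, an androgen-responsive gene of prostate epithelium, averaged 4250 CPM in DHT-treated and 574 CPM in vehicle-treated LNCaP cells, against 0.319 CPM in PC3 cells. HOXB13, another LNCaP marker, did not follow this order, with 593 CPM in PC3, 421 CPM in DHT-treated and 545 CPM in vehicle-treated cells. The PC3 line marker KRT5 had 1, 0 and 0 counts in PC3 cells, 0, 5 and 3 with DHT and none with vehicle. The 4 epithelial markers EPCAM, KRT8, KRT18 and CDH1 were detected in every library, with sums of 449 to 457 CPM in PC3, 3427 to 3726 CPM in DHT-treated and 1266 to 1290 CPM in vehicle-treated LNCaP cells. The 12 markers of immune cells, endothelium and fibroblasts summed to 40.8 to 52.1 CPM over all libraries. Of these markers, CD3E and CDH5 had no count in any library, PTPRC had none in LNCaP cells, and CD14 and DCN had at most 7 counts in any library. Other markers of the list differed between groups. COL1A1 averaged 37.9 CPM in PC3, 13.3 in DHT-treated and 22.2 in vehicle-treated cells, ACTA2 0.870, 23.9 and 1.73 CPM, and VWF 0.0553, 7.496 and 17.01 CPM in the same order. PECAM1 averaged 2.68 CPM in PC3 cells and had 1 count in all LNCaP libraries. Their part in the receptor values was not tested. The 10 PC3 line markers summed to 2818 to 2962 CPM in PC3 cells. They summed to 29.1 CPM in DHT replicate 1, 17.1 and 11.9 CPM in the other DHT libraries, and 12.3, 5.76 and 6.40 CPM in vehicle replicates 1, 2 and 3. DHT replicate 1 thus held the most RNA of PC3 line markers among the LNCaP libraries, at 1.01% of the PC3 level, and VIM and CAV1 had 272 and 82 counts in it. In bulk RNA, fewer cells of a type and less RNA per cell cannot be told apart. PC3 replicate 3 stood apart from the other PC3 libraries in its counts. With PC3 replicate 3 and DHT replicate 1 both left out, 25 of 33 members tested were called between PC3 and DHT-treated cells, as with all libraries. Called means an adjusted p under 0.05 and a fold of at least 2. Of all 12541 genes tested, 5788 were called without these 2 libraries and 5773 with them.

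**Figure D1:**
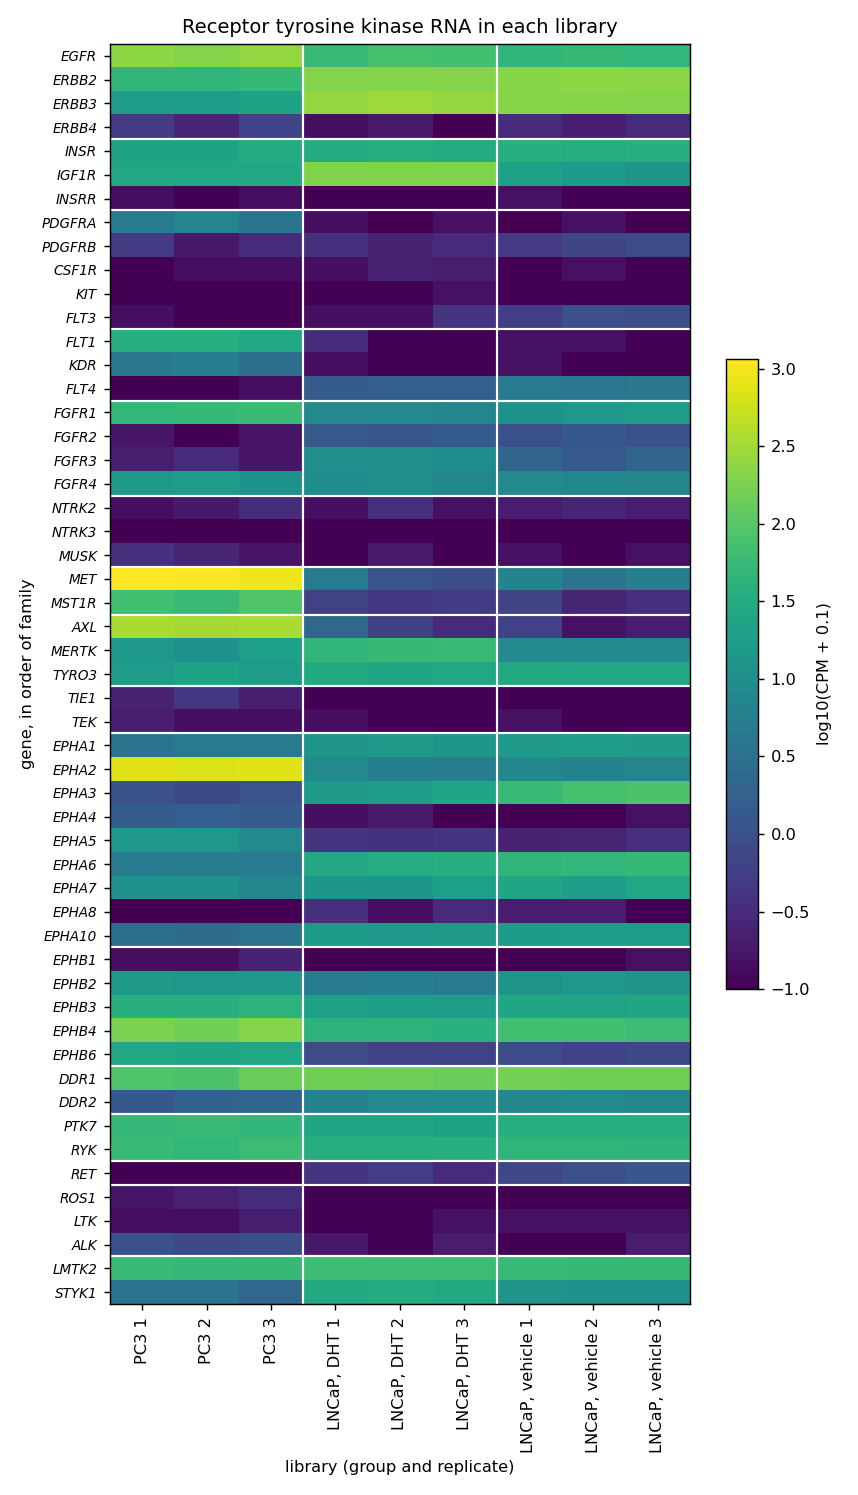
RNA level of the 53 receptor tyrosine kinase genes (rows, by family, with white lines between families) in the 9 libraries (columns, by group and replicate), as log10 of CPM plus 0.1. EPHA2, MET and AXL are brightest in the 3 PC3 libraries, ERBB2 and ERBB3 in the 6 LNCaP libraries, and IGF1R is brighter in the 3 DHT libraries than in the other 6.

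The receptors that made up most of the RNA differed between the lines. Summed over the 53 genes, the level was 625 ± 21.5 CPM per kilobase (SD, n = 3) in PC3 cells, 249 ± 5.03 in DHT-treated and 237 ± 1.50 in vehicle-treated LNCaP cells. The 5 highest genes held 77.0% ± 1.16 of this sum in PC3 cells, 64.6% ± 0.223 in DHT-treated and 66.6% ± 0.671 in vehicle-treated LNCaP cells. In PC3 cells these were EPHA2 with 185 ± 7.96 CPM per kilobase, MET with 155 ± 18.7, AXL with 72.7 ± 3.21, EPHB4 with 41.1 ± 4.88 and DDR1 with 27.6 ± 8.67. DDR1 did not stand apart from EGFR, the next gene, which had 23.2 ± 2.32 CPM per kilobase. In DHT-treated cells the order was ERBB3 with 47.6 ± 3.62, ERBB2 with 45.4 ± 0.321, DDR1 with 38.5 ± 1.35, IGF1R with 15.8 ± 0.191 and MERTK with 13.5 ± 1.12 CPM per kilobase. ERBB3 and ERBB2, which form a heterodimer that signals on neuregulin, did not differ beyond their spread. In vehicle-treated cells it was ERBB2 with 50.3 ± 2.21, DDR1 with 40.7 ± 1.36, ERBB3 with 37.1 ± 0.756, EPHB4 with 15.4 ± 0.626 and RYK with 14.8 ± 0.340 CPM per kilobase. EPHB4 and RYK lay within their spread of each other. DDR1, a collagen receptor, was the only gene among the 5 highest of all groups. Its 3 PC3 libraries had 89.3, 83.9 and 144 CPM, the DHT libraries 153, 148 and 143 CPM and the vehicle libraries 161, 151 and 157 CPM. PC3 replicate 3 was close to the LNCaP libraries, and the other 2 PC3 libraries were below them.

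**Figure D2:**
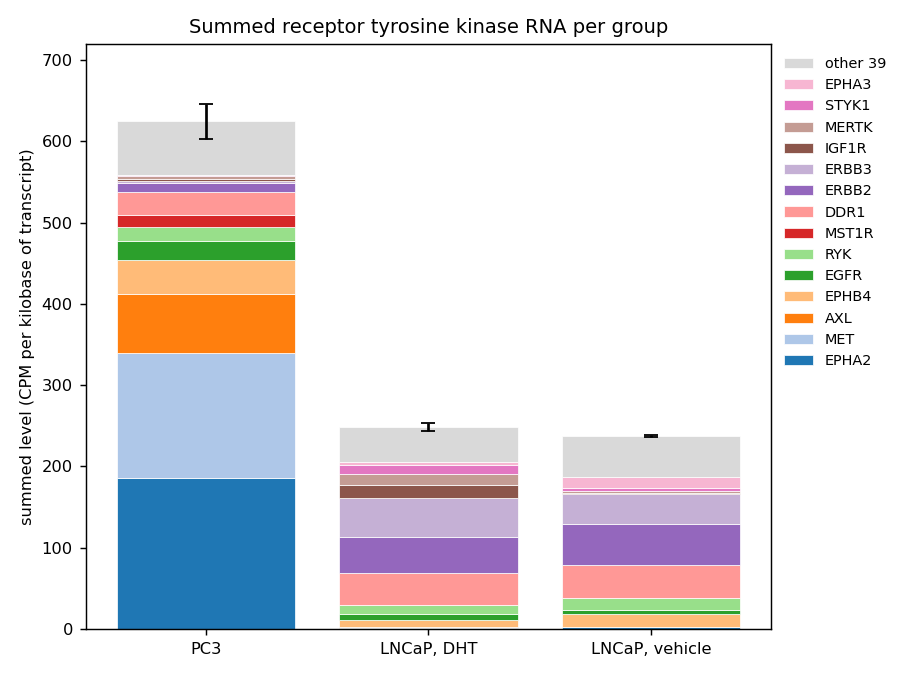
Summed RNA level of the 53 receptor tyrosine kinase genes per group, in CPM per kilobase of transcript, as the mean of 3 libraries with the SD of the sum as error bar. Colours mark 14 genes and grey the other 39. EPHA2 and MET fill most of the PC3 bar, whereas DDR1, ERBB2 and ERBB3 fill most of both LNCaP bars.

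Androgen changed a small group of receptors in LNCaP cells. Of the 53 genes, 27 passed the filter of more than 3 CPM in at least 3 libraries of this comparison, and 8 of them were called, 4 higher and 4 lower with DHT. A gene was called where edgeR's quasi-likelihood test gave an adjusted p under 0.05 over all genes and the fold was at least 2. The background of all 11697 genes tested was 14.0% called, 6.54% higher and 7.49% lower, while the share among the 27 members was 29.6%. The median log2 fold change of the 27 was -0.12, and that of all genes was -0.01. Another 11 members had an adjusted p under 0.05 with a fold under 2. By the adjusted p alone 19 of the 27 members passed, beside 8763 of the 11697 genes, so this share was no higher than that of all genes. IGF1R, MERTK, FGFR3 and STYK1 rose, whereas EPHA3, FLT4, EPHB2 and MET fell.

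IGF1R, the receptor of insulin-like growth factors (chr15:98648539-98964530, plus strand, GRCh38), rose 11.6-fold. Its DHT libraries had 194, 194 and 190 CPM, and its vehicle libraries had 20.5, 15.4 and 14.2 CPM. The groups were far apart, with a log2 fold change of 3.53 ± 0.09 (SE) and an adjusted p of 1.79e-12. Its relative INSR, the insulin receptor, had 32.3 ± 1.58 CPM with DHT and 34.6 ± 1.23 CPM with vehicle, and was not called (log2 fold change -0.10 ± 0.06, adjusted p = 0.150).

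MERTK, a TAM receptor that binds GAS6 and PROS1 and takes part in the uptake of dying cells (chr2:111898607-112029561, plus strand), rose 6.39-fold. It had 46.9, 53.5 and 54.9 CPM with DHT and 8.18, 8.01 and 8.07 CPM with vehicle. The groups did not overlap, and the log2 fold change was 2.68 ± 0.08 (adjusted p = 6.37e-12). TYRO3, another TAM receptor, had 27.2 ± 1.94 and 27.5 ± 1.71 CPM. AXL had 2.24, 0.494 and 0.202 CPM with DHT and 0.524, 0.0549 and 0.102 CPM with vehicle, below the filter.

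FGFR3, a receptor of fibroblast growth factors (chr4:1793293-1808872, plus strand), rose 5.59-fold from a low level. It had 10.2, 10.4 and 9.38 CPM with DHT and 1.99, 1.32 and 2.03 CPM with vehicle, and the groups did not overlap (log2 fold change 2.48 ± 0.15, adjusted p = 8.25e-09). FGFR1 had 7.79 ± 0.460 CPM with DHT and 14.6 ± 2.61 CPM with vehicle, a log2 fold change of -0.90 ± 0.13 (adjusted p = 2.57e-05) that stayed under a fold of 2. Without vehicle replicate 1 it was called, at -1.03. FGFR4 had 8.93 ± 1.65 and 7.70 ± 0.562 CPM, with overlapping groups.

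STYK1, also named NOK, is a membrane kinase without a known ligand (chr12:10618923-10674318, minus strand). It had 29.2, 31.3 and 29.5 CPM with DHT and 13.3, 12.2 and 10.97 CPM with vehicle, and rose 2.47-fold (log2 fold change 1.31 ± 0.08, adjusted p = 7.10e-09). All 3 DHT libraries were above all vehicle libraries.

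EPHA3, an ephrin receptor (chr3:89107621-89482134, plus strand), fell 3.70-fold. It had 15.4, 19.1 and 24.8 CPM with DHT and 57.3, 75.6 and 85.6 CPM with vehicle. The groups were apart, although libraries differed within each of them, and the log2 fold change was -1.89 ± 0.15 (adjusted p = 1.22e-07). EPHB2 (chr1:22710839-22921500, plus strand) fell 2.67-fold, from 12.5, 14.7 and 12.6 CPM with vehicle to 4.79, 5.63 and 4.44 CPM with DHT (log2 fold change -1.42 ± 0.12, adjusted p = 1.57e-07). Every DHT library was below every vehicle library. The other EPH genes tested were not called. EPHB4 had 41.5, 41.6 and 38.2 CPM with DHT and 69.0, 67.7 and 63.8 CPM with vehicle (log2 fold change -0.72 ± 0.05, adjusted p = 6.06e-08), EPHA6 had a log2 fold change of -0.61 ± 0.08 and EPHA7 of -0.56 ± 0.14, while EPHA1, EPHA2 and EPHA10 had adjusted p-values of 0.0578, 0.571 and 0.170.

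FLT4, the receptor of VEGFC and VEGFD (chr5:180601506-180649624, minus strand), fell 2.80-fold. It had 1.43, 1.53 and 1.56 CPM with DHT and 4.77, 3.90 and 4.01 CPM with vehicle. Libraries within each group were close together, and the log2 fold change was -1.48 ± 0.17 (adjusted p = 2.88e-06). FLT1 and KDR had at most 5 and 1 counts in any LNCaP library.

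MET, the receptor of HGF (chr7:116672196-116798377, plus strand), fell 2.42-fold in a comparison that rested on single libraries. Its DHT libraries had 4.43, 0.987 and 0.857 CPM, and its vehicle libraries had 6.76, 3.62 and 5.33 CPM. DHT replicate 1 lay above vehicle replicate 2, so the groups overlapped (log2 fold change -1.28 ± 0.43, adjusted p = 0.0170). Without DHT replicate 1, the library with the most RNA of PC3 line markers, the log2 fold change of MET was -2.51. It was not called without DHT replicate 2 (-0.94), DHT replicate 3 (-0.92) or vehicle replicate 1 (adjusted p = 0.0790), nor by the DESeq2 Wald test (adjusted p = 0.128). The 99 MET counts of DHT replicate 1 were 0.420% of the PC3 level, and the part of PC3 RNA in this value was not tested.

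No ERBB receptor was called with androgen. ERBB3 had 254, 291 and 257 CPM with DHT and 211, 211 and 204 CPM with vehicle (log2 fold change 0.36 ± 0.05, adjusted p = 2.21e-05). ERBB2 had 207, 205 and 208 CPM with DHT and 218, 238 and 232 CPM with vehicle (-0.15 ± 0.04, adjusted p = 0.00516). EGFR, the EGF receptor, had 57.4, 76.7 and 67.4 CPM with DHT and 47.9, 52.4 and 49.7 CPM with vehicle (0.43 ± 0.08, adjusted p = 0.000411). In each of the 3 genes the groups did not overlap, but the folds of 1.28, 1.11 and 1.34 stayed under 2. RYK and PTK7, which take part in WNT signalling, had log2 fold changes of -0.37 ± 0.05 and -0.56 ± 0.06, and RYK had 34.5, 34.5 and 35.5 CPM with DHT and 45.6, 45.8 and 43.9 CPM with vehicle. Both were lower with DHT in every library, also by folds under 2. DDR1 and DDR2 had adjusted p-values of 0.128 and 0.936.

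**Figure D3:**
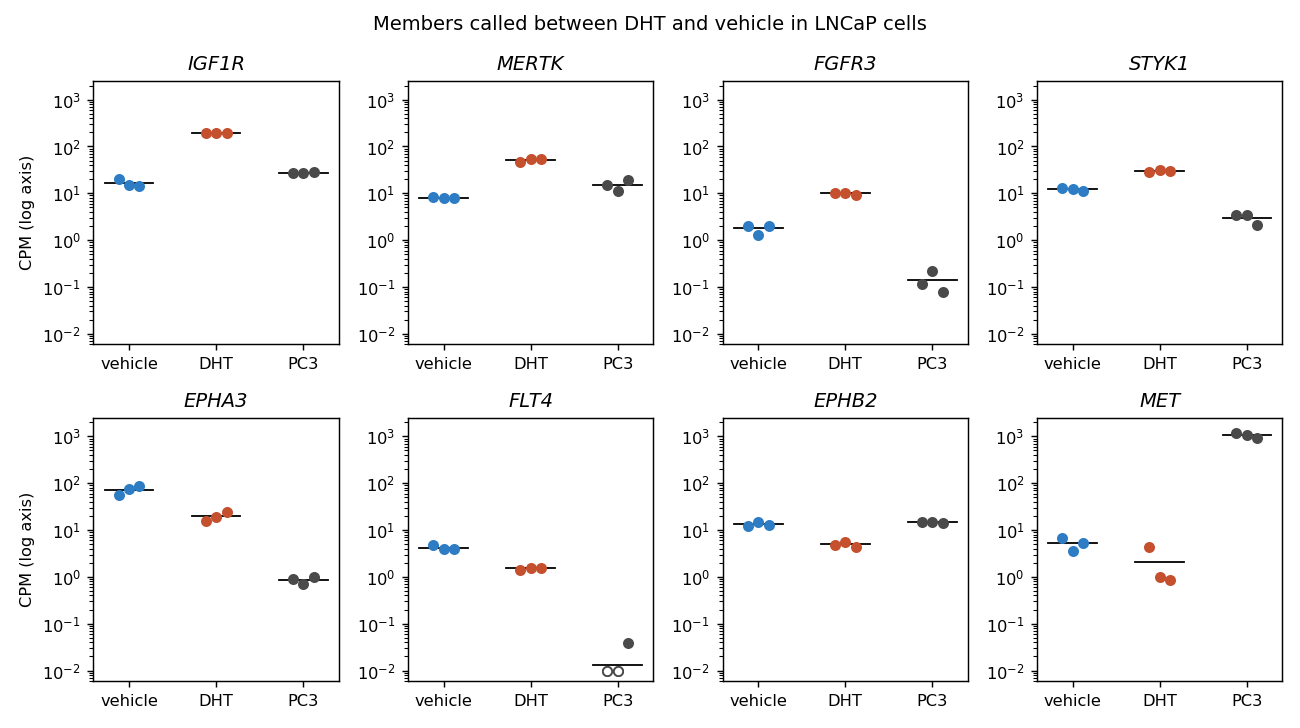
CPM on a log axis of the 8 receptor genes called between DHT and vehicle in LNCaP cells, with 1 point per library in replicate order from left to right and a line at the mean of 3 libraries. Open circles, drawn at 0.01 CPM, are libraries with no count. The DHT and vehicle points are apart in 7 genes and overlap in MET.

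The promoters of called genes are shown so that their sequence can be read beside the androgen response. Windows of 250 bases before the start were taken from RefSeq (GRCh38.p14), which matched 47 of the 53 members and 6 of the 8 called genes. All 6 are shown. IGF1R, MERTK and FGFR3, which rose, and EPHA3, EPHB2 and MET, which fell, are printed 5′ to 3′ on the plus strand of the genome, which is also the strand of these genes. Capitals mark the GC box GGGCGG or its reverse complement CCGCCC, a motif bound by SP1.
IGF1R, chr15:98648289-98648538: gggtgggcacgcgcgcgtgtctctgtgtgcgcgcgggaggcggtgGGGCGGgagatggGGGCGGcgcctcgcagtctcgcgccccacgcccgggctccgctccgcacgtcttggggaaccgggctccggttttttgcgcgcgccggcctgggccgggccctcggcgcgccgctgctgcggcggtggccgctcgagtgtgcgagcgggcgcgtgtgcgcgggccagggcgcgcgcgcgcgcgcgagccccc
MERTK, chr2:111898357-111898606: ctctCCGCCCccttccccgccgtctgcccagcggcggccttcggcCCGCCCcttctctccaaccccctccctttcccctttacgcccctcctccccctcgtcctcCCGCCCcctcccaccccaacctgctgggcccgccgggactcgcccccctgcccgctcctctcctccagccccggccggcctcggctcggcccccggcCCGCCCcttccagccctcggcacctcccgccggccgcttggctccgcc
FGFR3, chr4:1793043-1793292: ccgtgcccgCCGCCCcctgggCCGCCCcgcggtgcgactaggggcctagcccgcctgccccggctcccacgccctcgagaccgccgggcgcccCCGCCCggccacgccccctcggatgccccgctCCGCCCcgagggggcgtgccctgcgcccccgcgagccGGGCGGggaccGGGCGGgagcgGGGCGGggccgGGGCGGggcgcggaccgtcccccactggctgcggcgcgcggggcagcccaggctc
EPHA3, chr3:89107371-89107620: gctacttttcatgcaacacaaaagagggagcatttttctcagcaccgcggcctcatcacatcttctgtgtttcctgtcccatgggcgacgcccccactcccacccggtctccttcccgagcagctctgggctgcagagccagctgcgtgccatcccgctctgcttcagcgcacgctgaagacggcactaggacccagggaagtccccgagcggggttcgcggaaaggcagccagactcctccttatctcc
EPHB2, chr1:22710588-22710837: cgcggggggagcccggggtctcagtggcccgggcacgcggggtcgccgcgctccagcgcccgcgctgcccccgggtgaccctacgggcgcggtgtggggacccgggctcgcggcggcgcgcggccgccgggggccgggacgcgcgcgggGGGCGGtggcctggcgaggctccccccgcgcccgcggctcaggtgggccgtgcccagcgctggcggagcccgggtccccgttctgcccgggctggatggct
MET, chr7:116671946-116672195: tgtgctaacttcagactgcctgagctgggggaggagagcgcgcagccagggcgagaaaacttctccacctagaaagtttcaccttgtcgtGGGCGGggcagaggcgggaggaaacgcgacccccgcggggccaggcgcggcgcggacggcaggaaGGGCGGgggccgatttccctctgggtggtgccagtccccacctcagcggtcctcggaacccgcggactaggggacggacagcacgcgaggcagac

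The window of FGFR3 held 8 GC boxes on both strands together, that of MERTK 4, those of IGF1R and MET 2 each, that of EPHB2 1 and that of EPHA3 0. GC content was 86.8% in FGFR3, 84.8% in EPHB2, 81.2% in IGF1R, 78.8% in MERTK, 68.4% in MET and 61.2% in EPHA3, against a median of 58% over 35116 RefSeq windows. CpG dinucleotides numbered 48 in IGF1R, 42 in EPHB2, 40 in FGFR3, 25 in MERTK, 24 in MET and 15 in EPHA3, against a median of 11. The genes that rose and those that fell overlapped in all 3 measures. EPHB2 has another RefSeq start 1 base downstream, whose window is not printed. A GC box was in a window of 38 of the 47 matched members and in 42.6% of all windows, and 63.3% of the 79 windows of members held it. The letters AGAACA or TGTTCT, which occur in steroid hormone response elements, were in a window of 5 of the 47 members. They were in 6.33% of the 79 windows of members and in 12.4% of all windows. None of the 6 called genes with a window had them. These matches describe the printed stretch only.

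The levels of many receptors differed between PC3 and DHT-treated LNCaP cells. Of the 33 members tested, 25 were called, and PC3 cells had the higher level in 14 and the lower in 11. The background of all 12541 genes tested was 46.0% called, 24.0% higher and 22.1% lower, and the share among the 33 members was 75.8%. The median log2 fold change of these members was 0.65, against 0.04 for all genes. Against vehicle-treated LNCaP cells, 22 of 33 members tested were called, 12 higher and 10 lower, which is 66.7%, beside a background of 43.2% of 12686 genes, 22.2% higher and 21.0% lower. The PC3 libraries enter both comparisons. In each comparison, members low in 1 group, such as AXL and FGFR3, passed the filter only through the other group. For such members the filter itself selects a difference, so the shares and medians rest in part on it. This holds for the background of all genes and for the gene lists below too. Called in the same direction against both LNCaP groups were 12 members higher in PC3 cells (EGFR, PDGFRA, FLT1, KDR, FGFR1, MET, MST1R, AXL, EPHA2, EPHA5, EPHB4 and EPHB6) and 8 lower (ERBB2, ERBB3, EPHA1, EPHA3, EPHA6, EPHA10, DDR2 and STYK1). The share of all genes called the same way against both groups was not computed, so these counts have no background beside them.

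**Figure D4:**
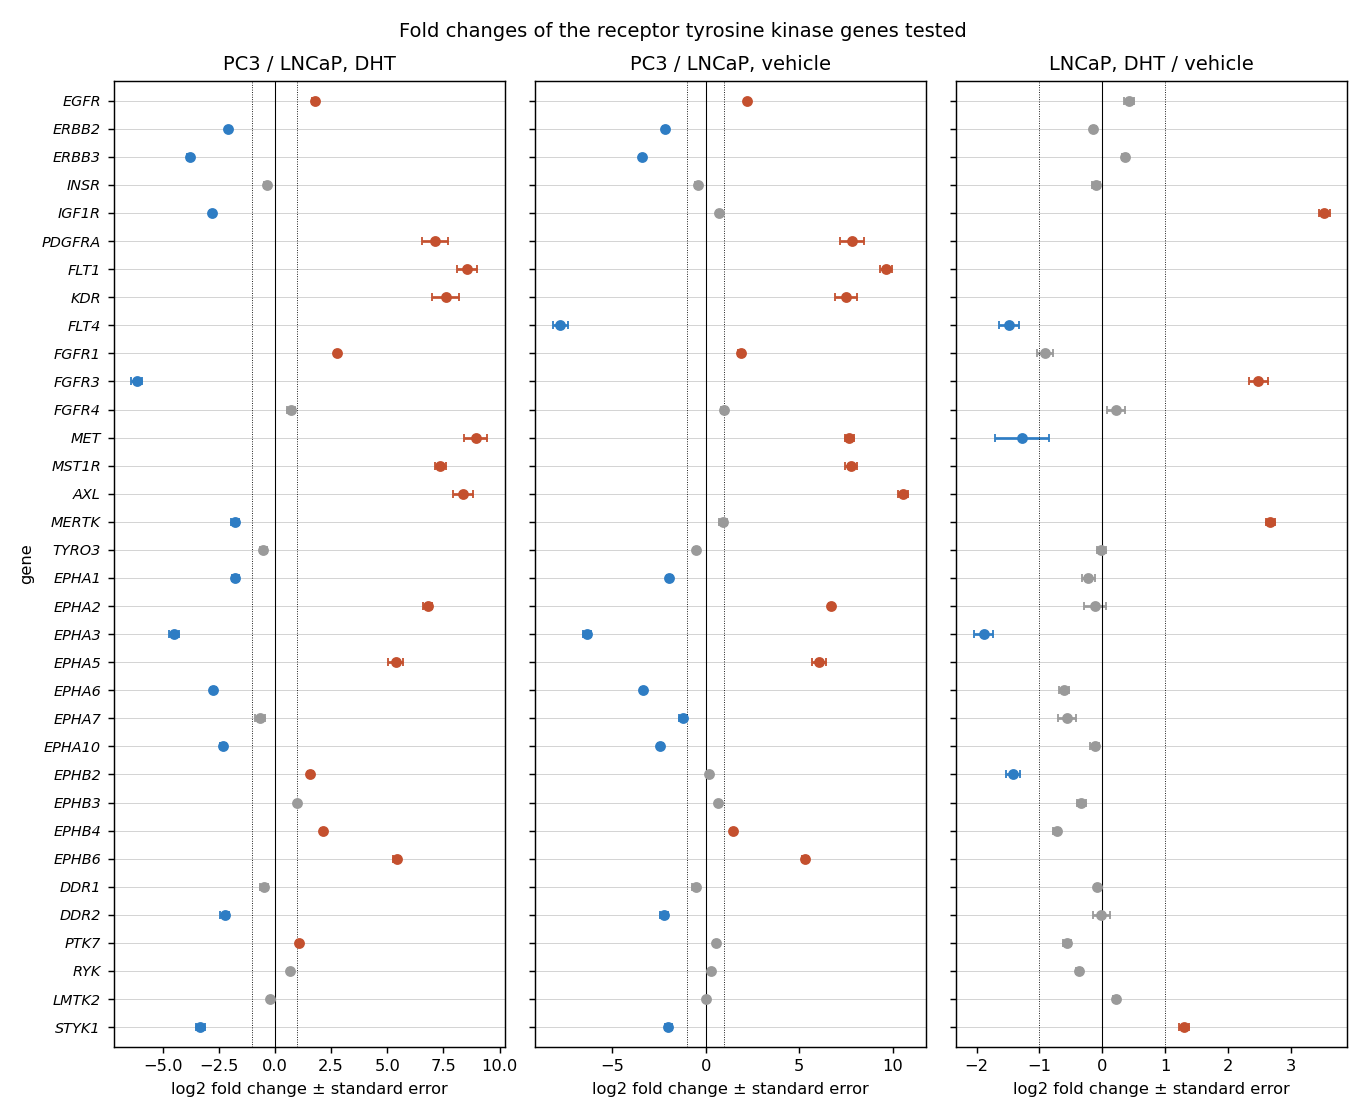
Log2 fold changes with standard errors of the receptor genes tested, for PC3 against DHT-treated LNCaP cells, PC3 against vehicle-treated LNCaP cells and DHT against vehicle in LNCaP cells. Each panel has its own horizontal scale, dotted lines mark a fold of 2, and colours mark called genes (red higher, blue lower, grey not called). IGF1R and MERTK lie on opposite sides of 0 in the 2 PC3 panels, while MET, AXL and EPHA2 lie far to the right in both.

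MET and its relative MST1R, which bind HGF and MST1, were both higher in PC3 cells. MET had 1158, 1095 and 912 CPM in PC3 cells, with the DHT libraries at 4.43, 0.987 and 0.857 CPM. It was 489-fold higher (log2 fold change 8.93 ± 0.51, adjusted p = 1.16e-06), and against vehicle-treated cells 204-fold higher (7.67 ± 0.24). MST1R (chr3:49887002-49903873, minus strand) had 69.1, 57.4 and 90.3 CPM in PC3 cells, 0.537, 0.346 and 0.403 CPM with DHT and 0.577, 0.165 and 0.254 CPM with vehicle. It was 165-fold higher in PC3 cells than in DHT-treated cells (7.37 ± 0.25, adjusted p = 9.84e-08) and 216-fold higher than in vehicle-treated cells. No LNCaP library came near a PC3 library in either gene.

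Among TAM receptors, AXL was the main RNA in PC3 cells and MERTK in DHT-treated LNCaP cells. AXL (chr19:41219223-41261766, plus strand) had 355, 326 and 348 CPM in PC3 cells, and it was 335-fold higher than with DHT (8.39 ± 0.44, adjusted p = 7.37e-07) and 1490-fold higher than with vehicle (10.54 ± 0.28). MERTK had 14.7, 11.04 and 19.6 CPM in PC3 cells. It was 3.42-fold lower than with DHT (-1.77 ± 0.18, adjusted p = 3.38e-05) but had a log2 fold change of 0.92 ± 0.19 against vehicle, which was not called unless PC3 replicate 2 was left out (1.09). TYRO3 had 19.0 ± 3.34 CPM in PC3 cells and was not called against either LNCaP group.

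The folds of low genes moved with single LNCaP libraries. Among them were DHT replicate 1 and vehicle replicate 1, which held the most RNA of PC3 line markers in their groups. The part of PC3 RNA in these folds was not tested. Without DHT replicate 1, the PC3 to DHT log2 fold change of MET was 10.17 and that of AXL 9.94. Without vehicle replicate 1, the log2 fold change of MST1R against vehicle was 8.41, and AXL, with 3 vehicle counts left, had a ratio of 4340 with a 95% counting interval of 1485 to 21045. Each of these genes was called in the same direction with all libraries and with any library left out.

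The VEGF receptors split between the lines. FLT1, which binds VEGFA, VEGFB and PGF (chr13:28300346-28495145, minus strand), had 34.5, 34.7 and 26.6 CPM in PC3 cells, that is 878, 798 and 674 counts. The DHT libraries had 5, 0 and 0 counts and the vehicle libraries 1, 1 and 0. FLT1 was 375-fold higher in PC3 than in DHT-treated cells (8.55 ± 0.45, adjusted p = 7.53e-07), and without DHT replicate 1 it was at least 426-fold higher against a limit of 3 counts over the group. Against vehicle the ratio was 908, with a 95% interval of 251 to 7504 from counting error. KDR, the main receptor of VEGFA (chr4:55078481-55125595, minus strand), had 105, 123 and 77 counts in PC3 cells, 1, 0 and 0 with DHT and 1, 0 and 0 with vehicle. Its ratios of 258 (46.0 to 10235) and 236 (42.0 to 9342) thus rested on a single LNCaP count, and without replicate 1 they were at least 55.3 and at least 52.3. FLT4 went the other way, with 0, 0 and 1 counts in PC3 cells, 32, 31 and 31 with DHT and 91, 71 and 79 with vehicle. Its ratio in vehicle-treated over PC3 cells was 312 (55.4 to 12365), or at least 68.2 without PC3 replicate 3.

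PDGFRA, a PDGF receptor (chr4:54229280-54298245, plus strand), was detected in PC3 cells, with 128, 160 and 89 counts (5.04, 6.96 and 3.52 CPM). The DHT libraries had 1, 0 and 1 counts and the vehicle libraries 0, 1 and 0. The ratio of PC3 to DHT-treated cells was 160 (43.9 to 1323), with an adjusted p of 8.73e-06, and that to vehicle-treated cells was 291 (52.0 to 11541), or at least 66.1 without vehicle replicate 2. Of the 74-base stretches of its transcripts, 15.0% also occur in transcripts of other genes. PDGFRA, KIT and KDR lie side by side on chromosome 4, between positions 54229280 and 55125595. KIT (chr4:54657267-54740783), the gene between the other 2, had no count in any PC3 library and 1 count in all LNCaP libraries.

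In the FGF receptor family FGFR1 was higher and FGFR3 lower in PC3 than in DHT-treated LNCaP cells. FGFR3 had 0.118, 0.217 and 0.0790 CPM in PC3 cells, 3, 5 and 2 counts, and was 70.7-fold lower than with DHT (-6.14 ± 0.25, adjusted p = 1.99e-07). Against vehicle-treated cells, which had 1.78 ± 0.402 CPM, FGFR3 did not pass the filter and was not tested. FGFR1 had 53.04 ± 5.30 CPM and was 6.81-fold higher than with DHT and 3.69-fold higher than with vehicle. FGFR4 had 14.7 ± 2.34 CPM and was not called against either group, although it was called against vehicle without PC3 replicate 3 (1.06) or vehicle replicate 1 (1.01). The libraries of PC3 and DHT-treated cells did not overlap in any of these 3 genes.

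In the ERBB family EGFR was higher and ERBB2 and ERBB3 were lower in PC3 cells. ERBB3 (chr12:56076799-56103505, plus strand) had 17.2, 17.3 and 22.8 CPM in PC3 cells and was 14.0-fold lower than with DHT (-3.80 ± 0.12, adjusted p = 6.89e-08) and 10.7-fold lower than with vehicle. ERBB2 had 47.2, 47.6 and 52.98 CPM in PC3 cells, 4.19-fold and 4.57-fold lower than with DHT and vehicle. EGFR had 230 ± 22.9 CPM in PC3 cells, 3.43-fold and 4.67-fold higher. No alternative tried changed the call of these 3 genes against either LNCaP group. ERBB4 was too low to be tested, with at most 14 counts in a PC3 library and at most 4 in an LNCaP library.

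IGF1R had 27.0, 27.3 and 27.9 CPM in PC3 cells. Against DHT-treated LNCaP cells it was 7.03-fold lower (-2.81 ± 0.06, adjusted p = 1.57e-08), whereas against vehicle-treated cells it had a log2 fold change of 0.74 ± 0.14 and was not called. PC3 libraries lay between the vehicle and the DHT libraries. EPHB2 had 15.1, 14.7 and 14.5 CPM in PC3 cells, 2.98-fold higher than with DHT (1.58 ± 0.12) and with overlapping libraries against vehicle (0.18 ± 0.10). STYK1 had 3.38, 3.52 and 2.09 CPM in PC3 cells, below all LNCaP libraries, and was 9.97-fold lower than with DHT (-3.32 ± 0.19, adjusted p = 1.10e-06) and 3.98-fold lower than with vehicle.

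EPH receptors, which signal between neighbouring cells through ephrins, were called in both directions. Of the 11 EPH members tested against DHT-treated cells, EPHA2, EPHA5, EPHB2, EPHB4 and EPHB6 were higher in PC3 cells, and EPHA1, EPHA3, EPHA6 and EPHA10 were lower. EPHA2 (chr1:16124337-16156069, minus strand), the receptor of EFNA1, had 764, 702 and 727 CPM in PC3 cells, 8.64, 5.58 and 5.39 CPM with DHT and 7.86, 6.59 and 6.91 CPM with vehicle. It was 111-fold and 104-fold higher (6.80 ± 0.20 and 6.70 ± 0.10, adjusted p = 5.03e-08 and 8.18e-09), and no LNCaP library was near the PC3 range. EPHB6 (chr7:142855061-142871094, plus strand) had 28.1, 24.0 and 26.3 CPM in PC3 cells, 0.761, 0.543 and 0.504 CPM with DHT and 0.786, 0.549 and 0.660 CPM with vehicle. It was 42.7-fold and 39.6-fold higher. EPHA5 had 12.8 ± 3.45 CPM in PC3 cells and was 41.6-fold and 65.8-fold higher. EPHB4, the receptor of EFNB2, had 178, 158 and 201 CPM and was 4.43-fold and 2.72-fold higher.

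EPHA3 had 0.905, 0.696 and 0.988 CPM in PC3 cells, 22.6-fold lower than with DHT (-4.50 ± 0.23, adjusted p = 6.12e-07) and 82.1-fold lower than with vehicle. EPHA6 (chr3:96814581-97761532, plus strand) had 4.88, 5.04 and 4.42 CPM in PC3 cells, 28.5, 32.5 and 35.2 CPM with DHT and 45.0, 48.4 and 53.02 CPM with vehicle. Its groups did not overlap, and it was 6.67-fold and 10.0-fold lower in PC3 cells. Of its 74-base stretches, 10.3% also occur in transcripts of other genes and 0.478% elsewhere in the genome. EPHA10 (chr1:37713880-37765133, minus strand) had 3.11, 2.61 and 3.60 CPM in PC3 cells, 16.3, 14.5 and 15.6 CPM with DHT and 16.3, 17.2 and 17.2 CPM with vehicle, 4.97-fold and 5.33-fold lower. EPHA1 was 3.38-fold and 3.88-fold lower in PC3 cells. EPHA7 was called only against vehicle (2.29-fold lower). EPHB3 was 1.98-fold higher than with DHT, just under the threshold, and was called without PC3 replicate 1 (1.02), PC3 replicate 2 (1.02) or DHT replicate 1 (1.06). It was also called without the filter on low counts, with at least 10 counts in every library and by the adjusted p alone.

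DDR2, a receptor of fibrillar collagen (chr1:162631373-162787405, plus strand), had 1.22, 1.70 and 2.01 CPM in PC3 cells, 6.36, 8.10 and 8.92 CPM with DHT and 7.71, 8.67 and 7.16 CPM with vehicle. It was 4.71-fold lower than with DHT (-2.24 ± 0.21, adjusted p = 2.06e-05) and 4.68-fold lower than with vehicle, and 10.9% of its 74-base stretches also occur elsewhere in the genome. DDR1 was not called against either group (-0.48 ± 0.19 and -0.54 ± 0.19). PTK7 was 2.12-fold higher in PC3 than in DHT-treated cells and 1.46-fold against vehicle, not called. RYK had 54.3, 49.2 and 60.5 CPM in PC3 cells (log2 fold change 0.65 ± 0.08 against DHT and 0.30 ± 0.08 against vehicle). LMTK2 had 52.96 ± 1.97, 61.8 ± 1.73 and 53.1 ± 1.49 CPM in PC3, DHT-treated and vehicle-treated cells, and INSR had 25.2 ± 5.59 CPM in PC3 cells. None of RYK, LMTK2 and INSR was called in any comparison.

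The other 19 members were tested in no comparison. NTRK3 had no count in any library, and INSRR, CSF1R, KIT, TEK and LTK had at most 3 counts in every library, at a limit of 3 counts for a count of 0. Some of the others had counts mainly in either PC3 or LNCaP cells. FLT3 had 9, 16 and 16 counts in vehicle-treated cells, 1, 1 and 6 in DHT-treated cells and 1, 0 and 0 in PC3 cells. RET had 12, 16 and 23 counts with vehicle, 7, 9 and 4 with DHT and none in PC3 cells. FGFR2 was at 17 to 29 counts in each LNCaP library and at no more than 2 in each PC3 library. EPHA4 had 37, 36 and 36 counts and ALK 24, 16 and 21 in PC3 cells, against at most 2 in any LNCaP library. TIE1 and ROS1 had 15 and 11 counts over the PC3 libraries and none in LNCaP cells, and EPHA8 had none in PC3 cells and 11 and 4 over the DHT and vehicle libraries. PDGFRB, NTRK2, MUSK and EPHB1 had at most 15, 6, 7 and 4 counts in any library. Counting intervals of some ratios lay away from 1, although they cover counting error only. The ratio of PC3 to vehicle-treated cells was 84.3 for EPHA4 (14.8 to 3358) and 23.6 for ALK (6.25 to 199), and that of vehicle-treated to PC3 cells was 53.04 for FLT3 (9.001 to 2145) and at least 21.99 for RET.

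Most ligand genes tested differed between the lines. Of 35 ligand genes tested among 67 listed, 23 were higher and 9 lower in PC3 than in DHT-treated cells, with a median log2 fold change of 2.67 beside 0.04 for all genes. This was 91.4% of the ligands tested, beside 46.0% of all genes. Against vehicle, 23 were higher and 8 lower of 35 (88.6%, beside 43.2% of all genes), with a median of 2.37. AREG, a ligand of EGFR, had 231, 203 and 113 CPM in PC3 cells and a log2 fold change of 10.42 ± 0.51 over DHT-treated cells. NRG2, an ERBB3 ligand, had a log2 fold change of 8.89. FGF5 had 703 counts in PC3 cells and none in LNCaP cells, at least 198-fold and 181-fold higher, and FGF1 was at least 140-fold higher than with vehicle. VEGFC, the FLT4 ligand, had 75.0 CPM in PC3 cells and 3 counts with vehicle, a ratio of 1425 (488 to 6914). PC3 cells thus had high VEGFC RNA and 1 FLT4 count in all.

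Lower in PC3 cells were IGF1, with no count in PC3 cells and 207 and 213 counts over the DHT and vehicle libraries (at least 81.5-fold and 91.8-fold lower), EFNA5 (log2 fold change -5.25 and -4.16), ANGPT2 (-9.06 against DHT) and EGF (-2.61 against vehicle). With androgen, 4 of 24 ligands tested in LNCaP cells rose and 3 fell (29.2%, beside 14.0% of all genes), and the median was -0.04. ANGPT2, a ligand of TEK, rose from 0.315, 0.549 and 0.457 CPM to 97.1, 115 and 78.8 CPM (7.77 ± 0.22, adjusted p = 6.36e-12), while TEK itself had at most 1 count in an LNCaP library. VEGFA rose 1.85 and VEGFB 1.66 on the log2 scale. KITLG, the KIT ligand, FGF13 and TGFA fell, with log2 fold changes of -2.94, -1.77 and -1.18.

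Of 14 coreceptors, 7 were tested between the lines, and 5 were higher and 1 lower in PC3 than in DHT-treated cells (median log2 fold change 1.50), 4 higher and 1 lower than with vehicle (median 1.19). These were 85.7% and 71.4% of the 7, beside 46.0% and 43.2% of all genes. NRP1, a VEGF coreceptor, was 1.74 and 1.41 higher on the log2 scale, and NRP2 had 675 counts in PC3 cells against 2 with DHT and 9 with vehicle. SDC4 was 1.64 higher than with DHT, ITGB1 was 1.29 higher than with vehicle, and SDC3 was lower (-1.53 and -1.90). With androgen, SDC4 fell (-1.42) and was the only 1 called of 6 tested (median -0.37), a share of 16.7% that is near the 14.0% of all genes.

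Among 35 adaptors and proximal effectors, 11 were higher and 7 lower of 31 tested in PC3 against DHT-treated cells (median 0.46), and 13 and 7 of 31 against vehicle (median 0.66). The shares called were 58.1% and 64.5%, beside 46.0% and 43.2% of all genes. SHC4 (6.20 and 4.66), FYN (5.52 against DHT), GAB2 (4.48 and 5.16) and IRS1 (3.90 against vehicle), which couple receptors to RAS, SRC-family and PI3K signals, were higher. Transcription factors of the STAT family, which act downstream of cytokine and growth factor receptors, were among the lower genes. STAT5B had no PC3 count against 2465 and 2853 counts over the DHT and vehicle libraries, and was at least 970-fold and 1230-fold lower. STAT3 had 5 PC3 counts in all (-12.11 and -11.34), and STAT5A had none (at least 121-fold lower than with DHT). PIK3R1, a regulatory subunit of PI3K, was also lower than with vehicle (-3.98). With androgen, 2 of 29 rose and 2 fell (median 0.04), and this share of 13.8% is near the 14.0% of all genes. IRS2, an adaptor of the insulin and IGF receptors (1.54), and STAT5A (1.13) rose, while PIK3R3 (-1.96) and PIK3R1 (-1.35) fell.

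Negative regulators moved in both directions. In DHT-treated LNCaP cells 5 of 25 tested rose and 3 fell (32% called, beside 14.0% of all genes), with a median of -0.04. ERRFI1, an inhibitor of EGFR, rose from 44.3, 44.1 and 43.7 CPM to 820, 1037 and 769 CPM (4.31 ± 0.10, adjusted p = 9.32e-13). SOCS2 rose by 3.23 and LRIG1, which lowers ERBB receptors, by 1.85 on the log2 scale. GRB10, which binds and restrains the insulin and IGF receptors, fell from 775, 872 and 810 CPM to 127, 130 and 128 CPM (-2.68 ± 0.05, adjusted p = 9.83e-14). LRIG3 (-1.55) and GRB14 (-1.05) also fell. Between PC3 and DHT-treated cells 8 of 24 were higher and 6 lower (median 0.07), and against vehicle 10 and 7 of 25 (median 0.46). The shares called were 58.3% and 68%, beside 46.0% and 43.2% of all genes. PTPRK (4.42 and 3.83), SH3KBP1 (2.22 against DHT), CBLB (1.99 against DHT), ERRFI1 (4.99 against vehicle) and SOCS2 (3.06 against vehicle) were higher. ERRFI1 averaged 1380 CPM in PC3 and 875 CPM in DHT-treated cells, while SOCS2 was lower in PC3 (60.0 CPM) than in DHT-treated cells (68.5 CPM). LRIG1 had 43 counts over the PC3 libraries (-9.24 and -7.38), PTPRF was lower than with DHT (-2.84), and GRB14 had no PC3 count (at least 108-fold lower than with vehicle). The lists of ligands, coreceptors, adaptors and regulators were described by these counts and were not tested as sets.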

How the data were processed

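RNA was measured in 9 libraries of PC3 and LNCaP cells by poly(A)-selected, single-end RNA-seq with 74-base reads. The authors deposited raw counts per gene for each library, and these equalled STAR's own counts for the forward strand. The submitters' processing notes name cutadapt 4.1, STAR 2.7.7a, UMI-tools 1.1.2 and GRCh38, while the gene annotation is not given in the sources used here. Reads that STAR did not count to a gene, for whatever reason, were 20.3% to 25.4% per library and were left out of library sizes.

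The 6 libraries of a comparison were fitted together with edgeR 4.0.16 in R 4.3.3 (quasi-likelihood F test, TMM factors, more than 3 CPM in at least 3 libraries), with Benjamini-Hochberg adjustment over all genes. Genes with an adjusted p under 0.05 and a fold of at least 2 were called. The scripts were tested on simulated data. Levels (CPM) were scaled by TMM factors from the 9 libraries together, and lengths are MANE Select transcripts of GENCODE 44. Where a group had no count, folds are bounds against 3 counts over the group, and where it had 1 to 3 counts they are ratios with exact 95% intervals, which cover counting error only. Alternatives were DESeq2 1.42.0, other filters, scalings and designs, and leaving out each library.

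Values per library are given for members called between DHT and vehicle, for the 8 largest called rises and falls between PC3 and DHT-treated cells and for the 5 highest members per length in each group. From each pathway list up to 3 called genes per direction were named. The members and lists were chosen with earlier results of these data known. Same-numbered DHT and vehicle libraries deviated together over 11155 genes, with correlations of 0.17, 0.23 and 0.20. Differently numbered ones had -0.25 to 0.08. However, PC3 replicate 3 and DHT replicate 1, also of different numbers, reached 0.22. These values therefore do not settle whether replicate numbers pair DHT and vehicle, and the main fits held no pairing. The study's model held a term for experimental batch. The labels name no batch, so the main fits held no batch term, and whether replicate numbers stand for it is not known. A block of replicate numbers was an alternative in all 3 comparisons. Some genes that the naming rule covers are not reported here.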

Additional observations from a re-analysis of the deposited data

Results flagged for a closer look

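Reads on the strand opposite to a receptor gene, which no main fit used, were above the limit of 3 counts that a count of 0 allows in the genes named next. An alternative on unstranded counts called 25, 8 and 22 members, of 33, 27 and 33 tested, as in the main fits. Over all genes it called 5782, 1634 and 5474, of 12587, 11738 and 12705 tested. Over the PC3 libraries counts on the opposite strand numbered 47 for EGFR, 35 for FGFR1, 163 for MET, 19 for MST1R, 80 for AXL, 341 for EPHA2, 30 for EPHA5 and 82 for EPHB4. They were 0.209% to 0.887% of the counts on both strands of the gene, except for EPHA5 with 3.09%. Over the DHT libraries they numbered 78 for IGF1R (0.644%) and 15 for FGFR3 (2.34%). These are groups in which the gene was high. In groups with few counts the share varied. AXL with vehicle had 8 opposite-strand counts beside 13 (38.1%), and FGFR3 in PC3 cells had 3 beside 10 (23.1%). MST1R had 0 beside 27 with DHT and 0 beside 19 with vehicle. Over all genes the reverse strand held 2.33% to 3.06% of reads per library.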

How the results depend on the processing

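The 25, 8 and 22 members called in the 3 comparisons became 33, 19 and 31 with the adjusted p alone, of 33, 27 and 33 tested. Without a filter on low counts they became 35, 12 and 30, of 52, 50 and 51 tested. With at least 10 counts in every library they became 19, 8 and 15, of 26, 29 and 26 tested. Over all genes this filter gave 4858, 1734 and 4472 calls, of 12159, 12901 and 12199 tested. With any library left out the counts were 25 to 26, 7 to 8 and 22 to 23, beside 5717 to 5830, 1601 to 1686 and 5415 to 5616 of all genes. Over all genes, 5773, 1641 and 5485 calls became 10530, 8763 and 10577 with the adjusted p alone, of 12541, 11697 and 12686 tested. Without the filter they became 9147, 2941 and 8713, of 21303, 20429 and 21238 tested. With the replicate block, 25, 8 and 22 members and 5756, 1638 and 5495 of all genes were called, and the block changed the call of no member.

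MET between DHT and vehicle ranged from -2.51 to -0.92 with any library left out, and with the replicate block it was -1.34. It missed the test of a fold above 2 (adjusted p = 0.858). So did PTK7 between PC3 and DHT-treated cells (0.163) and EPHA7 between PC3 and vehicle-treated cells (0.182). Members that were not called changed sign in a few settings. DDR2 between DHT and vehicle was 0.0073 without the filter, 0.11 without DHT replicate 1 and 0.063 without vehicle replicate 2. Leaving out any library gave DDR2 values from -0.12 to 0.11. EPHA2 was 0.011 without DHT replicate 3, in a range from -0.38 to 0.011. TYRO3 was 0.0036 without the filter, 0.026 without DHT replicate 2, 0.0013 without DHT replicate 3 and 0.032 without vehicle replicate 1, in a range from -0.084 to 0.032. LMTK2 between PC3 and vehicle-treated cells was -0.0029 with all 9 libraries in the same fit and -0.023 without PC3 replicate 1, in a range from -0.023 to 0.051. The cause was not tested. By the length of all exons, EGFR replaced DDR1 as the fifth member in PC3 cells, and EPHA3 replaced RYK among the 5 highest with vehicle.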
